A study of Homo sapiens with 6 samples.

Results

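The genes described here are 35 genes of glucose uptake, glycolysis, lactate handling, pyruvate dehydrogenase (PDH) control and gluconeogenesis in HK-2 cells. They were taken by gene symbol from the deposited tables, 1 chromosome entry each, and make up 35 of the 41497 named entries. HK-2 is a line of human tubular epithelial cells, immortalised and of proximal origin, so all libraries come from 1 cell line, labelled wild type. RNA-seq was performed on 3 control libraries of untreated cells and 3 libraries of cells exposed to TGF-β1, a profibrotic cytokine, all at 24 hours. The study used these libraries to look for regulators that respond to TGF-β in tubular cells. The labels describe maintenance in medium with fetal bovine serum, whereas the methods of the study describe TGF-β exposure in serum-free medium. Whether the control cells were also without serum is not stated, so an effect of serum and an effect of TGF-β1 cannot be told apart here. Nothing states that the 3 libraries of a group came from separate cultures, and p-values then measure only the spread between these libraries. Each value is a sum over all cells of a sample, in which fewer cells with a transcript and less transcript per cell cannot be told apart.

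Glycolysis splits glucose into pyruvate in the cytosol. Hexokinase traps glucose inside the cell, and phosphofructokinase, driven by fructose 2,6-bisphosphate from the PFKFB enzymes, is its main control point. Pyruvate is then either reduced to lactate and exported or passed to the mitochondrial PDH complex, which PDH kinases switch off and PDH phosphatases switch on. In the kidney, proximal tubule cells in the body rely mostly on fatty acid oxidation and can make glucose from lactate by gluconeogenesis, whereas cultured tubular lines commonly depend on glycolysis. The HK2 gene, which encodes hexokinase 2, is not to be confused with the cell line and is written here as the HK2 gene.

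Libraries held 21.9 to 26.9 M counts (M, megacounts). All 8 genes of a list of TGF-β response genes were called higher in the TGF-β1 libraries, where 22.2% of all entries were. This list was chosen with earlier results of these data known, so it is not an independent check. Of the variance, 73.4% lay on the first principal component, along which treatment split the libraries. On the second, with 9.38%, TGF-β1 replicate 1 lay at 19.8 and TGF-β1 replicates 2 and 3 at -10.3 and -10.5. Of 11 proximal tubule markers, LRP2, SLC22A6 and SLC5A12 had 0 reads in every library, while PAX8 was at 206 ± 8.03 TPM and GGT1 at 85.9 ± 8.28 TPM in control (SD, n = 3). All 6 tubule markers that could be tested differed between groups, 4 lower and 2 higher, and the summed TPM of the list went from 355 to 376 in control libraries to 198 to 217 after TGF-β1. Of 10 markers of other nephron segments, UMOD and CALB1 had 0 reads, and the summed TPM, mostly from KRT8 and KRT18, went from 1188 to 1221 in control to 1586 to 1745 after TGF-β1, while EPCAM was lower at a log2 fold change of -1.25. Of 9 fibroblast, endothelial and leukocyte markers, the summed TPM went from 185 to 199.9 in control to 113 to 149.6 after TGF-β1, almost all of it CD68. Of the 3 genes of this list that could be tested, PDGFRB, a mural cell and fibroblast receptor, was higher at a log2 fold change of 3.38, and CD68 at -0.44 and the endothelial CDH5 were lower, CDH5 with 62 reads in the control libraries and 0 in the TGF-β1 libraries. The fibroblast markers PDGFRA and DCN had 2 and 9 reads in control and 4 and 12 after TGF-β1. What part these shifts have in the values below was not tested.

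Of the 35 genes, 31 passed the filter on low counts and were tested with edgeR together with all other genes. The other 4, namely PFKFB1, SLC16A1, PCK1 and FBP1, had too few reads. At an adjusted p under 0.05, 4 of the 31 rose with TGF-β1 and 10 fell. Over all 14860 entries tested, 44.3% were called in either direction, 22.2% higher and 22.1% lower, against 45.2% in either direction here. Glucose metabolism genes were thus called about as often as the other genes, and the description below is of single genes. The groups did not overlap for 16 of the 31 genes, against 55.6% of all entries. Only PDK4 changed at least 2-fold with an adjusted p under 0.05, where 9.06% of all entries did, and ENO2 at -0.98 lay just under that limit. The median log2 fold change was -0.06 against 0.0063 over all entries, and the median size of change was 0.18 against 0.25 over all entries. Without TGF-β1 replicate 1, 5 genes were higher and 13 were lower, and 3545 and 3651 of all 15106 entries then tested were.

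**Figure D1:**
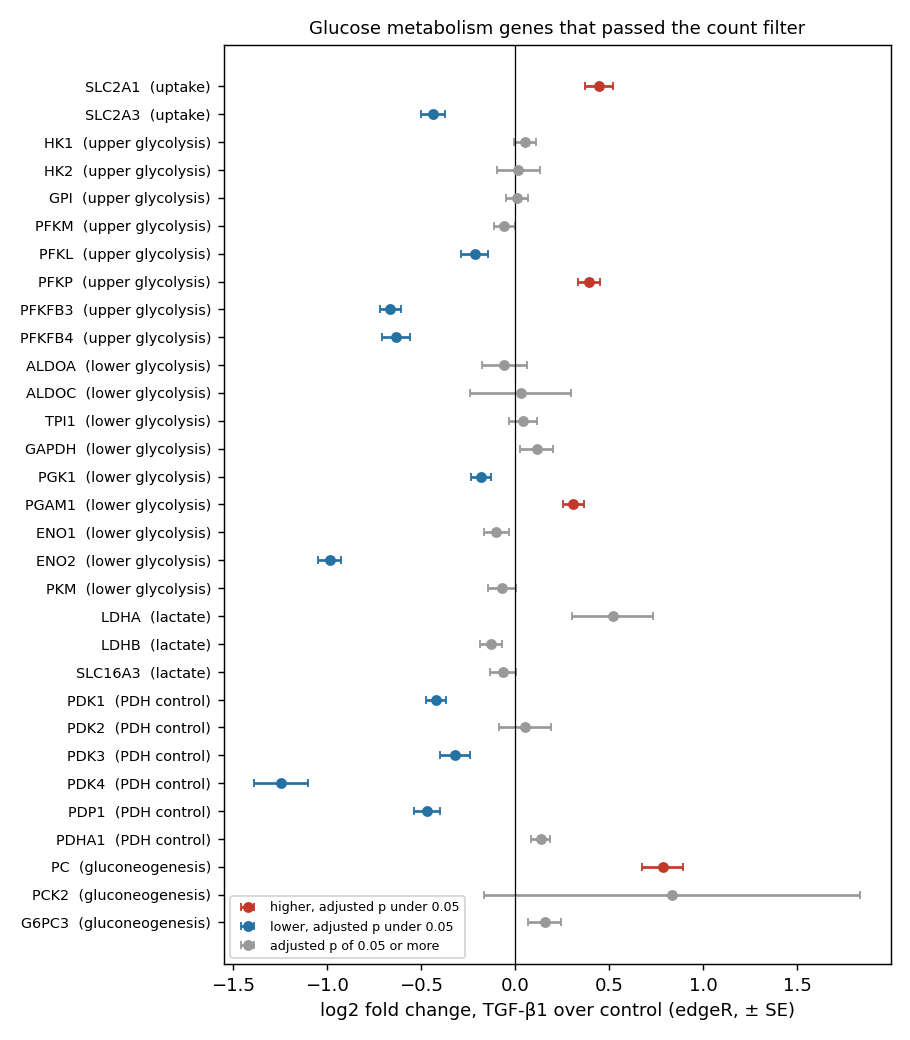
Log2 fold change of TGF-β1 over control (x axis) for the 31 genes that passed the count filter, grouped by role (y axis). Points are edgeR estimates, bars are ± SE from 3 control and 3 TGF-β1 libraries, and colour gives the call (red higher, blue lower, grey not called). PDK4 at -1.24 and ENO2 at -0.98 lie farthest to the left, and most enzymes of the main chain lie near 0.

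Promoters are shown for the 3 genes with the largest falls and the 1 with the largest rise among those called, since several genes of the list are known targets of hypoxia-inducible factors. The windows are RefSeq sequences on GRCh38.p14, running from 250 bases before to 50 bases after the annotated start of the gene, written 5′ to 3′ on the strand of the gene. Where a gene has several windows, the most upstream one is printed. Capitals mark ACGTG, the core letters of the hypoxia response element, searched on both strands.
ENO2 (chr12:6914330-6914629, plus strand): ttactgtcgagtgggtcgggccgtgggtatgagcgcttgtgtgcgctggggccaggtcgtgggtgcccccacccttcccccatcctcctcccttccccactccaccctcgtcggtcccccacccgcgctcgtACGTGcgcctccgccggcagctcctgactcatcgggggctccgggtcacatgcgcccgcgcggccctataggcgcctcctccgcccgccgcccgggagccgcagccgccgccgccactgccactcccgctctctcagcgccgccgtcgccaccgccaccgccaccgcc
PFKFB3 (chr10:6144671-6144970, plus strand): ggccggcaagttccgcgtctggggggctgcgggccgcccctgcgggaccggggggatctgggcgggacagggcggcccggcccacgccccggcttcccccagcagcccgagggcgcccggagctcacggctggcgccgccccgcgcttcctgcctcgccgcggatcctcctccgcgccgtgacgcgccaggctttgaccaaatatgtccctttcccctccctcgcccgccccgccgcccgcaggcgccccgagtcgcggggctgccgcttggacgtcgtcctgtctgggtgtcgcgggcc
PDK4 (chr7:95596467-95596766, minus strand): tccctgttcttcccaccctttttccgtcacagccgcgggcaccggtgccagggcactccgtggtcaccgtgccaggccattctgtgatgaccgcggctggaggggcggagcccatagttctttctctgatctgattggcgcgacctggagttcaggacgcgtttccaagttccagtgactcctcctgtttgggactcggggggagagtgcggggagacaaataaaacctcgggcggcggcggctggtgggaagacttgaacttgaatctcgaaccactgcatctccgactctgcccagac
PC (chr11:66958334-66958633, minus strand): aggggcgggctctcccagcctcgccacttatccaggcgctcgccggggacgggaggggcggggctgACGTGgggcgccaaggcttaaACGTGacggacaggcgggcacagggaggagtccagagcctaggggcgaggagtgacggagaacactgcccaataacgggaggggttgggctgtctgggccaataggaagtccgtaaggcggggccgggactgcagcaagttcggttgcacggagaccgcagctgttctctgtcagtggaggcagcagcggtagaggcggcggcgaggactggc

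The ENO2 window holds 1 copy of these letters and the PC window holds 2, while the windows of PFKFB3 and PDK4 printed here hold 0, although 1 of the 2 PFKFB3 windows does hold them. Windows were found for 31 of the 35 genes. The letters occurred in 24 of their 64 windows (37.5%) and in 21.4% of all 35116 windows of the table. By direction, 5 of 10 windows of genes called lower held them, 2 of 9 of genes called higher and 17 of 42 of genes not called. A CACGTG palindrome, the E-box, also contains these letters and was counted with them. A match is a run of letters and not a measured binding site.

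Both glucose transporters of the list were called, in opposite directions, where 44.3% of all entries were called. SLC2A1 (GRCh38 chromosome 1, 42925353 to 42958868), which encodes the widespread basal transporter GLUT1, had 273, 259.9 and 229 CPM (reads relative to the TMM-scaled library size) in the control libraries and 373, 329 and 335 after TGF-β1. All 3 TGF-β1 libraries were above all 3 controls, and the log2 fold change was 0.45 ± 0.07 (SE, adjusted p of 0.000666 by edgeR), a 1.36-fold rise. SLC2A3 (chromosome 12, 7919230 to 7936187), the high-affinity transporter GLUT3, had 51.4, 51.2 and 46.0 CPM in control and 35.9, 36.8 and 37.5 CPM after TGF-β1. Its TGF-β1 values were all lower and close together, with a log2 fold change of -0.43 ± 0.06 (adjusted p of 0.000266 by edgeR). RefSeq lists 3 pseudogenes named for SLC2A3, of which 0 are entries in the deposited tables, so reads that match such copies could affect it. Per length, SLC2A1 was the more abundant of the pair, at 249 ± 17.6 TPM (the deposited length-normalised level) in control against 43.0 ± 1.97 TPM for SLC2A3 (SD, n = 3).

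The steps from glucose to fructose 1,6-bisphosphate showed calls among phosphofructokinase genes and their regulators, whereas HK1 and the HK2 gene were not called. Of 8 genes tested here, 1 was higher and 3 were lower, where 22.2% and 22.1% of all entries were. HK1, the housekeeping hexokinase, had a log2 fold change of 0.05 ± 0.06, the HK2 gene 0.02 ± 0.11 and GPI, which converts glucose 6-phosphate to fructose 6-phosphate, 0.01 ± 0.06 (SE). None of these was called, and their groups overlapped. GPI shares 20.3% of its exon bases with GARRE1 on the same strand and has a copy on an alternate contig, an extra version of part of the reference genome, which held 213 reads against 44116 on the chromosome.

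The 3 subunit genes of phosphofructokinase did not move together. PFKP (chromosome 10, 3067475 to 3136805), the platelet-type subunit, had 435, 442 and 410.4 CPM in control and 597, 548 and 548 CPM after TGF-β1. The groups were far apart, and the log2 fold change was 0.39 ± 0.06 (SE, adjusted p of 0.000257 by edgeR). PFKL (chromosome 21, 44300040 to 44327373), the liver-type subunit, had 196, 199 and 179 CPM in control and 180.0, 163 and 152 CPM after TGF-β1. The highest TGF-β1 library of PFKL lay above the lowest control, so the groups overlapped, and the log2 fold change was -0.21 ± 0.07 (adjusted p of 0.0287 by edgeR). This call was lost in fits without control replicate 1 or 2 or without TGF-β1 replicate 2 or 3. PFKM, the muscle-type subunit, was at -0.06 (adjusted p of 0.442 by edgeR) and shares 13.7% of its exon bases with SENP1 on the opposite strand. Whether reads were counted by strand is not stated, so reads of bases shared between strands cannot be told apart.

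The PFKFB genes encode bifunctional enzymes that make and break fructose 2,6-bisphosphate. Transcripts of PFKFB3 and PFKFB4 were called lower, where 22.1% of all entries were. PFKFB3 (chromosome 10, 6144918 to 6254648), whose enzyme strongly favours synthesis, had 453, 442 and 434 CPM in control and 263, 292 and 285 CPM after TGF-β1. No TGF-β1 library came near a control, and the log2 fold change was -0.66 ± 0.06 (SE, adjusted p of 3.81e-06 by edgeR), which is 0.632 times the control level. PFKFB4 (chromosome 3, 48517684 to 48562383) had 37.5, 38.2 and 32.9 CPM in control and 23.6, 22.2 and 24.2 CPM after TGF-β1, a log2 fold change of -0.63 ± 0.07 (adjusted p of 4.9e-05 by edgeR). It fell by about as much as PFKFB3 without overlap, and shares 11.2% of its exon bases with UCN2 on the same strand. PFKFB1, the liver and muscle isoform, had 19 reads in the control libraries together and 11 after TGF-β1 and was not tested.

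**Figure D2:**
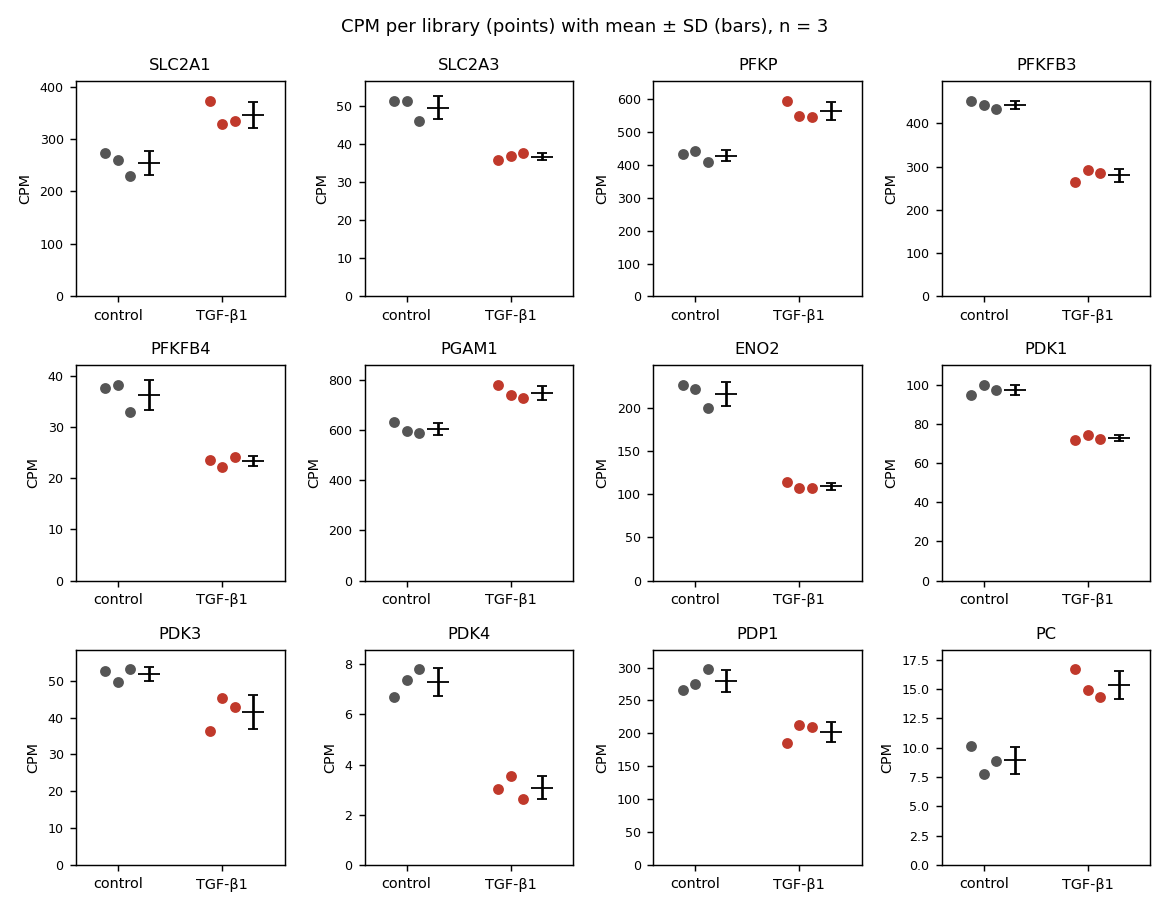
TMM-scaled CPM (y axis, from 0) of 12 of the 14 called genes in each control (grey) and TGF-β1 (red) library, with the group mean ± SD beside the points (n = 3). In each of the 12 panels the groups do not overlap, as was so for 55.6% of all entries tested. SLC2A1, PFKP, PGAM1 and PC are higher after TGF-β1 and the other 8 are lower. PFKL, whose groups overlap, and PGK1 are not shown, and both lost their call in some fits.

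In the lower part of glycolysis the abundant enzymes GAPDH, TPI1, ENO1 and PKM did not pass the test, and the largest shift was in the minor enolase ENO2. Of 9 genes tested, 1 was higher and 2 were lower, which is 33.3% called against 44.3% of all entries. GAPDH, which carries out the oxidation step, was the most abundant gene of all 35 at 8639 ± 317 TPM in control and 8602 ± 895 TPM after TGF-β1 (SD, n = 3). GAPDH had 0.12 ± 0.09 as its log2 fold change (SE, adjusted p of 0.322 by edgeR), and without TGF-β1 replicate 1, its highest library at 5623 CPM, it was -0.012. TPI1, ENO1 and PKM, for triose phosphate isomerase, the main enolase and pyruvate kinase M, had log2 fold changes of 0.04, -0.10 and -0.07. Their groups overlapped and none was called, but without TGF-β1 replicate 1 ENO1 was called at -0.17 and PKM at -0.15.

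ENO2 (chromosome 12, 6914580 to 6923697), which encodes the gamma enolase known from neurons, had 226, 222 and 199.7 CPM in control and 114, 107 and 107 CPM after TGF-β1. The TGF-β1 libraries were close to each other and far below every control, at 0.506 times the control level. The log2 fold change was -0.98 ± 0.06 (SE, adjusted p of 3.42e-07 by edgeR). PGAM1 (chromosome 10, 97426191 to 97433444), a phosphoglycerate mutase, had 631, 594 and 587 CPM in control and 779, 738 and 728 CPM after TGF-β1, a log2 fold change of 0.31 ± 0.06 (adjusted p of 0.00106 by edgeR). All TGF-β1 values were higher. PGK1 (chromosome X, 78104248 to 78129295), phosphoglycerate kinase and the first ATP-yielding step, had 1147, 1115 and 1057 CPM in control and 984, 969 and 975 CPM after TGF-β1. Its groups did not overlap, with a log2 fold change of -0.18 ± 0.05 (adjusted p of 0.0185 by edgeR), but the call was lost when all entries with a count were fitted and without control replicate 1 or 2 or TGF-β1 replicate 2 or 3.

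The aldolases had few reads for genes of this pathway. ALDOA, the main aldolase of most tissues, had 140 to 226 reads per library, or 12.4 ± 0.549 TPM in control, where TPI1, the next enzyme, had 1467 ± 41.0 TPM (SD, n = 3). It shares 65.1% of its exon bases with LOC112694756 on the same strand, which had 28 to 57 reads per library, and how reads of the shared bases were assigned is not stated, so the level of ALDOA is uncertain. Its log2 fold change was -0.06 ± 0.12 (SE, adjusted p of 0.732 by edgeR). ALDOC was at 0.03, with 26, 21 and 21 reads in the control libraries and 34, 21 and 16 in the TGF-β1 libraries. RefSeq lists 65 pseudogenes named for GAPDH, 13 for PGAM1, 5 for PKM and 4 each for ENO1 and TPI1, of which 0 are entries in the deposited tables, so reads that match such copies could affect these genes.

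Of the 4 lactate genes, 3 could be tested and none was called by edgeR, DESeq2 or limma-voom. Over all entries, 44.3% were called by edgeR. LDHA alone of the 3 had an unadjusted edgeR p under 0.05. LDHB (chromosome 12, 21635342 to 21657971), the subunit of lactate dehydrogenase that is abundant in oxidative tissue, had 942, 939 and 926 CPM in control and 866, 798 and 905 CPM after TGF-β1. The TGF-β1 values were all lower, but the log2 fold change of -0.13 ± 0.06 (SE, adjusted p of 0.103 by edgeR) did not pass the threshold. Without TGF-β1 replicate 1 LDHB was called at -0.15. SLC16A3, which encodes the lactate exporter MCT4, had 192, 190.5 and 169 CPM in control and 186, 163 and 179 CPM after TGF-β1. These groups overlapped, at a log2 fold change of -0.06 ± 0.07, and 32.2% of the exon bases of SLC16A3 are shared with CSNK1D on the opposite strand.

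For LDHA, the subunit that favours lactate formation, and SLC16A1, which encodes the transporter MCT1, the chromosome entry held only a small part of the reads. LDHA had 31, 38 and 38 reads in control and 43, 65 and 46 in TGF-β1 libraries on chromosome 11, and 542, 686 and 586 against 923, 787 and 745 reads on an alternate contig. The chromosome entry had a log2 fold change of 0.52 ± 0.21 (SE, adjusted p of 0.071 by edgeR), the contig entry 0.43 ± 0.07 (adjusted p of 0.00088 by edgeR), and the sum of both 0.43 (adjusted p of 0.000518 by edgeR). LDHA was also called on the chromosome without TGF-β1 replicate 1, at 0.68. SLC16A1 had 2, 6 and 2 reads in the control libraries and 3, 1 and 1 in the TGF-β1 libraries on chromosome 1. Its contig copy had 657, 154 and 149 against 189, 206 and 159 reads, with control replicate 1 far above the rest, and was not called (adjusted p of 0.443 by edgeR). Both entries of LDHA together still held fewer reads than a single library of LDHB, and how reads matching more than 1 place were treated is not stated, so the level of LDHA and SLC16A1 is uncertain.

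**Figure D3:**
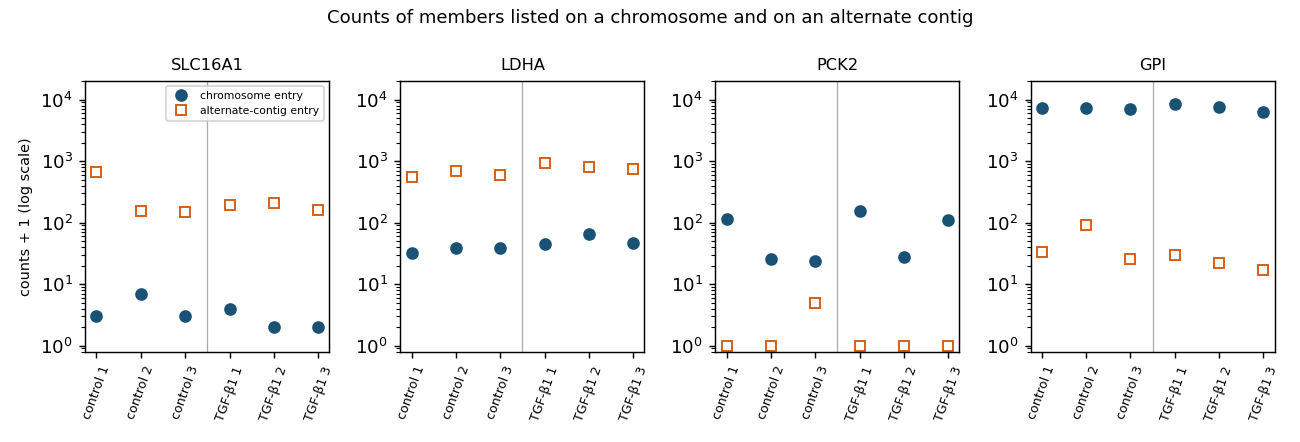
Reads plus 1 (y axis, log scale) of the 4 genes with a second entry on an alternate contig, in each control and TGF-β1 library (x axis). Filled circles are the chromosome entry and open squares the contig entry; for LDHA and SLC16A1 the contig entry holds more reads in every library, and for GPI and PCK2 the chromosome entry does.

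Of the 6 genes that set PDH activity, 4 were lower and 0 were higher by edgeR, where 22.1% and 22.2% of all entries were. The counts were the same by DESeq2 and limma-voom. PDHA1 alone was higher at an unadjusted edgeR p under 0.05. PDK4 (chromosome 7, 95583499 to 95596516), the PDH kinase induced by fasting and fatty acids, had 6.70, 7.36 and 7.81 CPM in control and 3.04, 3.56 and 2.63 CPM after TGF-β1. Every TGF-β1 library was under the lowest control, and the log2 fold change was -1.24 ± 0.14 (SE, adjusted p of 4.69e-05 by edgeR), or 0.423 times the control level. It was a gene of low level, at 6.74 ± 0.635 TPM in control (SD, n = 3).

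PDK1 (chromosome 2, 172555373 to 172672698), a PDH kinase known as a hypoxia target, had 94.9, 99.96 and 97.2 CPM in control and 71.8, 74.4 and 72.4 CPM after TGF-β1, a log2 fold change of -0.42 ± 0.05 (SE, adjusted p of 7.5e-05 by edgeR). PDK3 (chromosome X, 24465286 to 24550466) had 52.6, 49.6 and 53.2 CPM in control and 36.4, 45.2 and 42.8 CPM after TGF-β1, a log2 fold change of -0.32 ± 0.08 (adjusted p of 0.00764 by edgeR). Neither gene had overlapping groups, and TGF-β1 replicate 1 was the lowest library for both. PDK2 was not called at 0.06 ± 0.14 and shares 51.5% of its exon bases with SAMD14 on the opposite strand. PDP1 (chromosome 8, 93916923 to 93926068), the phosphatase that reverses the action of the kinases, had 266, 275 and 298 CPM in control and 185, 212 and 210.3 CPM after TGF-β1. It fell as well, by a log2 fold change of -0.47 ± 0.07 (adjusted p of 0.000254 by edgeR), so transcripts of both the inactivating and the activating enzyme were lower.

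PDHA1, the catalytic E1 subunit on which the kinases and phosphatases act, had 109.7, 113 and 109.7 CPM in control and 126, 121 and 118 CPM after TGF-β1. The TGF-β1 values were all higher, but the log2 fold change was only 0.14 ± 0.05 (SE, adjusted p of 0.0518 by edgeR). It was called when names with 1 entry only were fitted (0.14) and when entries of a name were summed (0.14), and 27.2% of its exon bases are shared with MAP3K15 on the opposite strand. Of 6 other genes of the PDH complex and its phosphatases that could be tested, 0 were called by edgeR, DESeq2 or limma-voom. An unadjusted edgeR p under 0.05 was reached by 0 of them, where 44.3% of all entries were called. Their log2 fold changes ran from -0.17 to 0.11.

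Of the 5 gluconeogenesis genes, 3 could be tested and PC alone was called, higher, where 44.3% of all entries were called. By edgeR, DESeq2 or limma-voom or at an unadjusted edgeR p under 0.05, 0 were lower. PC (chromosome 11, 66848420 to 66958418), pyruvate carboxylase, which turns pyruvate into oxaloacetate, had 10.1, 7.77 and 8.83 CPM in control and 16.7, 14.9 and 14.3 CPM after TGF-β1. All TGF-β1 values were higher, 1.72-fold on average, with a log2 fold change of 0.78 ± 0.11 (SE, adjusted p of 0.000166 by edgeR). G6PC3, the ubiquitous glucose 6-phosphatase, was not called at 0.16 ± 0.09. PCK2, the mitochondrial form of phosphoenolpyruvate carboxykinase, had 112, 25 and 23 reads in the control libraries and 155, 27 and 111 in the TGF-β1 libraries. These values varied about as much within as between groups, with a log2 fold change of 0.83 ± 1.001 (adjusted p of 0.555 by edgeR). It was 2.04 without control replicate 1, 1.28 without TGF-β1 replicate 2, and 0.45 to 0.62 without any 1 of the other 4 libraries, and PCK2 shares 9.33% of its exon bases with NRL on the opposite strand.

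The cytosolic and tubule-typical enzymes were at the limit of detection. PCK1, the cytosolic carboxykinase of proximal tubule and liver, had 1, 1 and 2 reads in control and 0 in every TGF-β1 library. A count of 0 over the 3 TGF-β1 libraries allows up to 0.0406 CPM, taking 3 reads of 73.8 M as the limit, which covers counting error only. FBP1, fructose 1,6-bisphosphatase, had 2 reads in the control libraries and 1 in the TGF-β1 libraries. G6PC1, the glucose 6-phosphatase of liver and kidney, and PKLR, the liver pyruvate kinase, had 0 reads in all 6 libraries, which allows up to 0.0442 CPM in control. The second entry of PKLR, on an alternate contig, also had 0 reads. SLC2A2, the basolateral transporter GLUT2, had 31 reads in the control libraries and 17 in the TGF-β1 libraries. SLC5A2, the glucose cotransporter SGLT2 of the early proximal tubule, had 36 and 23 reads and was not called, at -0.65 ± 0.42 (adjusted p of 0.237 by edgeR).

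Shares among related genes of the list compare them per length inside each library, so the scaling between libraries drops out. The share of 1 gene in the summed TPM of 2 to 4 genes was compared for 6 such groups with a two-sided exact permutation test over the 6 libraries, for which 3 against 3 cannot go below 0.1. PFKP made up 59.9%, 60.5% and 60.7% of the phosphofructokinase TPM in control and 69.1%, 68.6% and 69.9% after TGF-β1. SLC2A1 made up 85.3% ± 0.405 of SLC2A1 and SLC2A3 in control and 91.4% ± 0.676 after TGF-β1 (SD, n = 3). Both shares were higher in 3 of 3 TGF-β1 libraries. ENO2 went from 9.85% ± 0.226 to 5.60% ± 0.186 of the summed TPM of ENO1 and ENO2, and PDK4 from 15.2% ± 0.554 to 8.36% ± 1.07 of the PDH kinase TPM (SD, n = 3). With CPM in place of TPM, the difference for PDK4 was -1.97 percentage points in place of -6.88. For these 4 shares the groups did not overlap, at the smallest exact permutation p of 0.1 and an adjusted p of 0.15 over the 6 shares, so none passed a threshold of 0.05. Related genes outside the list, such as HKDC1, PFKFB2 and ENO3, do not enter these sums. The HK2 gene made up 18.3% ± 1.09 of HK1 and the HK2 gene in control and 18.0% ± 2.28 after TGF-β1 (exact permutation p 0.8). PFKFB3 made up 93.1% ± 0.426 of PFKFB3 and PFKFB4 in control and 93.0% ± 0.528 after TGF-β1 (exact permutation p 0.7).

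**Figure D4:**
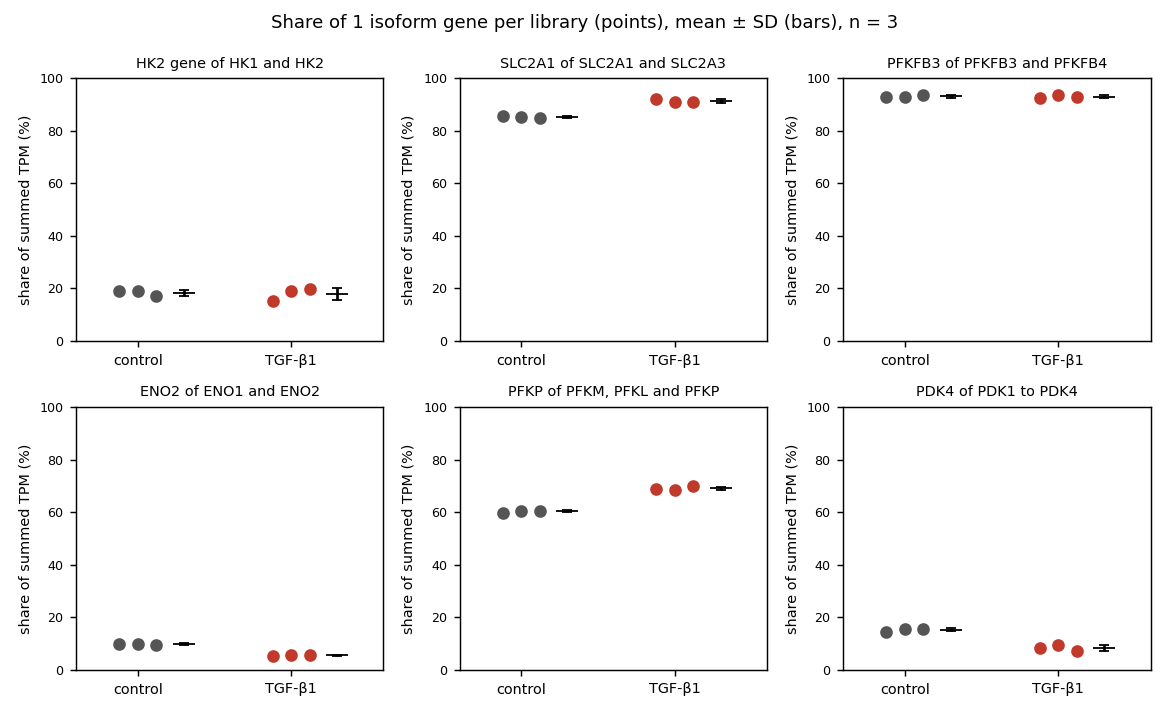
Share of 1 gene in the summed TPM of the genes named above each panel (y axis, percent) in each control (grey) and TGF-β1 (red) library, with the group mean ± SD beside the points (n = 3). The shares of SLC2A1 and PFKP lie higher and those of ENO2 and PDK4 lower in all TGF-β1 libraries, while those of the HK2 gene and PFKFB3 overlap.

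Summed over the chromosome entries of a role, TPM describes where the counted transcripts of the pathway lie. Most reads of LDHA and SLC16A1 lie on other entries and are not in these sums, and the level of ALDOA is uncertain. Lower glycolysis held 16786 ± 469 TPM in control and 15901 ± 1174 TPM after TGF-β1 (SD, n = 3), more than all other roles together. The lactate genes held 1781 ± 10.4 and 1510.1 ± 86.1 TPM, the steps from hexokinase to fructose 1,6-bisphosphate 1093 ± 23.9 and 990.5 ± 16.8 TPM, and PDH control 348 ± 19.6 and 270.2 ± 14.5 TPM. Uptake held 292 ± 19.5 and 342 ± 11.3 TPM and gluconeogenesis 80.9 ± 5.74 and 87.0 ± 7.75 TPM, most of the latter from G6PC3. TPM adds up to the same total in each library, and TMM gave control libraries factors of 1.03 to 1.05 and TGF-β1 libraries 0.958 to 0.972, so TPM reads lower after TGF-β1 than scaled CPM does. These sums were not tested. Most of the lactate sum was LDHB, with 1591 ± 15.6 TPM in control and 1341 ± 80.6 TPM after TGF-β1 (SD, n = 3). LDHB was not called, while LDHA with its entries summed was called higher, at 0.43.

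Other genes of the pathway, from 5 lists, numbered 59, of which 39 were tested with 10 higher and 6 lower, which is 41.0% called against 44.3% of all entries, at a median log2 fold change of -0.0012. Among sugar transporters, SLC2A5, the fructose transporter GLUT5, rose from 2.08 ± 0.440 to 9.31 ± 0.450 CPM (SD, n = 3), a log2 fold change of 2.16 ± 0.16 (SE, adjusted p of 1.17e-06 by edgeR). SLC2A12 (GLUT12) and SLC2A13, a myo-inositol carrier, rose by 1.37 and 0.39 and SLC2A9, a urate carrier, was at -0.87. Transporters outside the GLUT1 and GLUT3 pair thus moved in both directions. Among other glycolysis genes, PFKFB2, the third PFKFB isoform of these cells, had 60.3, 57.2 and 58.1 CPM in control and 19.5, 29.7 and 29.5 CPM after TGF-β1, a log2 fold change of -1.16 ± 0.16 (adjusted p of 0.00098 by edgeR). PFKFB2 was named here by the size of its change. With PFKFB3 and PFKFB4, all 3 PFKFB genes that passed the count filter were called lower, where 22.1% of all entries were. HKDC1, a hexokinase-like gene at 125 ± 4.95 TPM in control, was at -0.45, ENO3, the muscle enolase, at 0.61 and BPGM, bisphosphoglycerate mutase, at 0.58, all called.

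Pyruvate and lactate carriers also split. MPC1, a subunit of the mitochondrial pyruvate carrier, rose from 10.6 ± 0.833 to 18.1 ± 1.36 CPM (SD, n = 3), by 0.78 ± 0.09 on the log2 scale (SE, adjusted p of 4.42e-05 by edgeR). Its partner MPC2 was at -0.28, called lower, from 48.9 ± 2.76 to 40.2 ± 2.70 CPM. SLC16A7, which encodes the lactate and pyruvate transporter MCT2, was at -0.51, called lower, and EMB, the chaperone embigin, at 0.38, called higher. In the gluconeogenesis list, MDH2 and GOT2, mitochondrial enzymes of the malate-aspartate shuttle, were at 0.23 and 0.21, both called higher. The calls of EMB, MDH2 and GOT2 were lost when libraries were scaled by total counts only, those of MDH2 also without any 1 of the 3 control libraries, and that of EMB also with DESeq2 and without control replicate 2.

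Many glycolysis genes are known targets of the hypoxia-inducible factors (HIF), so a list of 21 HIF regulators and further targets was read beside them. Of 19 tested, 10 were lower and 3 were higher, where 22.1% and 22.2% of all entries were, with a median log2 fold change of -0.45 against 0.0063 over all entries. EPAS1, which encodes HIF-2α, fell from 152 ± 17.5 to 33.6 ± 2.20 CPM (SD, n = 3), a log2 fold change of -2.18 ± 0.09 (SE, adjusted p of 2.16e-08 by edgeR). ADM, CITED2 and CA9, for adrenomedullin, a HIF-induced CBP/p300 binder and carbonic anhydrase 9, were at -2.08, -1.72 and -1.39, and all of these were called. Outside the naming rule and chosen after their values were seen, HIF1A, which encodes HIF-1α, was at -0.45 ± 0.06 (adjusted p of 0.000157 by edgeR) and VEGFA, a classical target, at 1.36 ± 0.05 (adjusted p of 7.34e-09 by edgeR). The list therefore held members that moved in opposite directions. HIF1A shares 31.9% of its exon bases with antisense entries.

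Of 12 tested genes from a list of glucose and amino acid sensors and their regulators, 6 were higher and 3 were lower, where 22.2% and 22.1% of all entries were, at a median log2 fold change of 0.21. MLXIP, which encodes the glucose sensor MondoA, had a log2 fold change of 1.09 ± 0.06 (SE, adjusted p of 9.83e-08 by edgeR), and its name has a second entry on an alternate contig. TFEB, a regulator of lysosome genes, was at 1.68 and FOXO1, a regulator of gluconeogenic genes and of PDK4, at 1.56. FOXO1 went from 1.22 ± 0.203 CPM in control to 3.59 ± 0.476 CPM after TGF-β1 (SD, n = 3), without overlap, and TFEB and FOXO1 were both called higher. PPARGC1A, the coactivator PGC-1α, was at -2.85, called lower.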

How the data were processed

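Poly(A) RNA of HK-2 cells was sequenced by the authors in 6 libraries. The deposited tables give raw counts per gene, and the authors' own TPM and FPKM. Per the submitters' processing notes, CASAVA, featureCounts 2.0.1, DESeq2 1.16.1 and the build hg38 were used; the aligner and the strandedness of the kit are not given in the sources used here. Each table held 42095 entries and 21.9 to 26.9 M counts. Loci without a name (0.396% to 0.464% of counts) were left out, and 7 broken records were rejoined. FPKM was not analysed.

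Groups were taken from the labels. Counts of 14860 entries kept by filterByExpr of edgeR 4.0.16 (minimum count 10) were scaled with TMM and tested with the two-sided quasi-likelihood F test, robust, with Benjamini-Hochberg adjustment over all entries and a threshold of 0.05. The standard error was derived from the F statistic. Shares were taken from deposited TPM. Scripts were tested on simulated data. The fits ran in R 4.3.3 with limma 3.58.1 and DESeq2 1.42.0 for alternatives, and summaries used scipy 1.17.1 and pandas 2.3.3 under Python 3.11.15.

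The genes and lists were chosen with earlier results of these data known. Named were all 35 genes and, per further list, up to 4 called genes with the largest fold at a mean of at least 1 CPM, and partners missing from the list. Some genes of the lists are not reported here. The alternatives were DESeq2, limma-voom, RLE size factors, total counts only, all entries with a count, a mean of at least 50 counts, a replicate block, entries summed per name, only names listed once, and each library left out.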

Additional observations from a re-analysis of the deposited data

How the results depend on the processing

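Of the 14 called genes, 12 kept their direction and call in all 15 alternatives. PFKL and PGK1 kept their direction and lost the call in the fits named with them. The number called stayed at 4 to 6 higher and 8 to 13 lower. Over all entries, 2130 to 3545 were higher and 2687 to 4592 lower in these fits, which tested 11979 to 25944 entries. With total counts only, the median of all genes moved from 0.0063 to -0.10, and 2130 entries were higher and 4592 lower, against 3294 and 3288 with TMM. Genes near 0 then changed sign without being called, with ALDOC at -0.075, GPI at -0.096, HK1 at -0.053, the HK2 gene at -0.090, PDK2 at -0.052 and TPI1 at -0.064. ENO1 (-0.21), LDHB (-0.24) and PFKM (-0.16) became called lower under that scaling. With a mean of at least 50 counts, GPI was at -0.010 and the HK2 gene at -0.0039. The cause of these sign changes was not tested. Without 1 library, the log2 fold change ranged from -0.16 to 0.032 for ALDOA, -0.25 to 0.17 for ALDOC, -0.012 to 0.17 for GAPDH, -0.042 to 0.056 for GPI, -0.080 to 0.11 for the HK2 gene, 0.45 to 2.04 for PCK2, -0.11 to 0.17 for PDK2 and -0.052 to 0.085 for TPI1.

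Pairing by replicate number was not visible, as deviations of same-numbered libraries correlated at 0.10, -0.02 and 0.10. These 3 correlations cannot show that the samples were unpaired. With a replicate block, 4 of the genes described were higher and 10 lower, and 3396 and 3394 of all entries. The direction of 4 shares held with CPM in place of TPM and without any 1 library. With CPM, the PDK4 difference shrank from -6.88 to -1.97 percentage points. The difference in share ranged from -1.15 to 0.992 percentage points for the HK2 gene and from -0.437 to 0.0836 for PFKFB3 when 1 library was left out. Shares planned for LDHA, SLC16A1, ALDOC and PCK1 were not run, since most reads of a partner lay on another entry or were near 0. Genes with few reads, such as PCK2 and ALDOC, carry the widest errors.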
